A study of Caenorhabditis elegans with 10 samples.

Results

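The comparison set 3 ribosome footprint libraries of whole Caenorhabditis elegans worms, harvested 18 h, 26 h and 34 h after hatched L1 larvae were plated, against 2 libraries harvested at 22 h and 30 h. These are 5 of the 10 libraries of a developmental series sampled every 2 h from 18 h to 36 h. All worms were of the N2 strain, the standard wild type, hatched overnight, plated on NA22 bacteria and grown without interruption, with no mutant allele and no drug in any group. Libraries were chosen by their labelled hour, with earlier results of these data known. Larval genes are known to cycle about every 8 h, so 18 h, 26 h and 34 h fall at one phase, and 22 h and 30 h fall 4 h away from it. Libraries of one phase served as repeats, although each time point has 1 library and the labels do not say whether the cultures were separate, so the spread between them also holds 8 h or 16 h of growth. Ribosome footprints are the stretches of mRNA that a translating ribosome shields from nuclease. Footprints alone do not separate a change of the mRNA from a change in how it is translated, and in whole worms fewer cells of a type and less RNA per cell cannot be told apart either.

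Nematode larvae grow through stages that each end in a moult. Before a moult the epidermis lays down a temporary apical matrix, the precuticle, then secretes collagens that are hydroxylated, trimmed and cross-linked into a new cuticle, and enzymes then free the old one. The pharynx, the feeding organ, has a cuticle of its own made of different proteins, and it is also shed. Genes for these steps are known to be used in waves, each at its own point of the larval cycle.

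Library totals were 27583634 footprint counts at 18 h, 33696423 at 26 h and 28494156 at 34 h, against 24155948 at 22 h and 17248486 at 30 h. Each library of the first phase was therefore deeper than both of the second, and after thinning every library to 17248486 counts 785 and 985 genes were called, 748 and 923 of them among the 777 and 986 described next. Defining markers of body-wall muscle, intestine, neurons, epidermis, pharyngeal muscle and germline were detected in all 5 libraries. Germline markers rose through the series, from 251 CPM (counts scaled to a library of 1000000) summed over pgl-1, glh-1 and gld-1 at 18 h to 1044 at 34 h. Sperm markers summed to 0 CPM at 18 h and 22 h and 0.119 at 26 h, and reached 3.72 at 30 h and 107 at 34 h. Yolk markers stood at 1.06 CPM or less up to 30 h and at 108 at 34 h, so the 34 h library differs in developmental age from its phase partners.

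Of 13665 genes tested, 777 (5.69%) had footprints that were higher at 18 h, 26 h and 34 h, and 986 (7.22%) were higher at 22 h and 30 h. A call needed an adjusted p under 0.05 in edgeR's quasi-likelihood test and a difference of at least 1 log2 between the phases, with a straight line through time fitted beside the phase. The median difference was 2.62 log2 (6.17-fold) among genes higher at 18 h, 26 h and 34 h, and 2.16 log2 (4.47-fold) among those higher at 22 h and 30 h. In the first direction 234 genes differed by at least 4 log2, and in the second 196 did. By contrast, the median absolute difference over all tested genes was 0.356 log2. Scaling by library totals alone in place of TMM (a scaling that centres the bulk of genes) moved the median of all genes from -0.02 to -0.24 log2 and the share of calls higher at 18 h, 26 h and 34 h from 44.1% to 33.2%.

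The called genes went up and down in alternate libraries. They were chosen for a difference between the phases in these same 5 libraries. The steps and the lack of overlap given here therefore follow largely from that choice, and describe the genes without adding support. All 777 genes of the first direction fell from 18 h to 22 h, with a median step of -1.76 log2, and all rose from 22 h to 26 h, by a median of 1.93 log2. From 26 h to 30 h 776 of them fell, and from 30 h to 34 h 776 rose. Of the 986 genes of the second direction, 979 rose from 18 h to 22 h, 980 fell from 22 h to 26 h, 986 rose from 26 h to 30 h and 978 fell from 30 h to 34 h. In CPM, 763 of the 777 and 949 of the 986 had no overlap between the phases, where the background over all tested genes was 41.4% (5658 genes), 20.2% in the first direction and 21.2% in the second. Libraries of one phase taken 8 h apart differed least over all genes: the share of genes that differed by 1 log2 or more was 5.48% for 22 h with 30 h, 6.58% for 18 h with 26 h and 10.2% for 26 h with 34 h. For libraries of opposite phase this share ran from 14.8% (18 h and 22 h) to 29.1% (22 h and 34 h), and for 18 h with 34 h it was 19.8%.

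The number of calls rested on each phase having its repeats. Without the 22 h library 250 and 232 genes were called, without the 30 h library 239 and 293, and without the 34 h library 401 and 449. Without the 18 h library the counts were 882 and 889, and without the 26 h library 818 and 938. Where 1 library was left at 22 h or 30 h, it was assumed to vary like the others. Of 89 called genes followed one by one, 54 were called whichever library was left out, and for the others the adjusted p (or the difference, where it fell under 1 log2) of the fit that ended the call is given.

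Of the 27 gene lists compared, the furrow collagens had the largest median difference, 5.93 log2. These 6 collagens (dpy-2, dpy-3, dpy-7, dpy-8, dpy-9 and dpy-10) form the annular furrows that ring the body. All 6 were higher at 18 h, 26 h and 34 h, by 5.38 to 6.61 log2, in the full set and with any library left out. Footprints of dpy-8 (WBGene00001070) stood at 832 CPM at 18 h, 6.40 at 22 h, 677 at 26 h, 7.65 at 30 h and 566 at 34 h. The 3 high libraries thus lay far above the low ones with no overlap, a difference of 6.61 ± 0.23 log2 (SE, 3 against 2 libraries; adjusted p = 0.000979). For dpy-3 the values were 1544, 11.4, 922, 15.3 and 802 CPM, a difference of 6.29 ± 0.39 log2 (adjusted p = 0.0041). For dpy-2 they were 685, 7.07, 546, 10.2 and 474 CPM, a difference of 6.03 ± 0.32 log2 (adjusted p = 0.00237). Together the 6 genes took 0.580%, 0.399% and 0.299% of all counts at 18 h, 26 h and 34 h, and 0.00668% and 0.00839% at 22 h and 30 h.

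**Figure D1:**
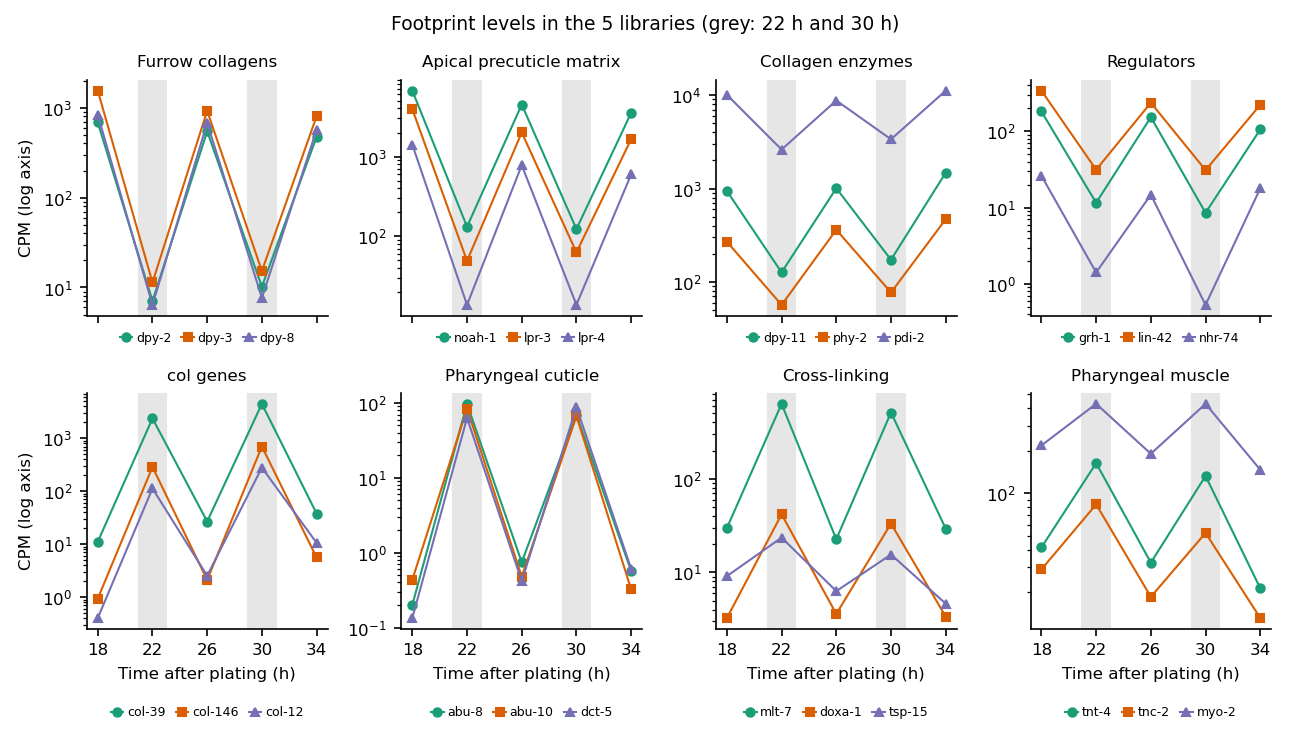
Footprint level in CPM (log axis) of 24 named genes in the 5 libraries, in order of hours after plating, with 1 library per point and the 22 h and 30 h libraries in grey. Genes of the upper row peak in the 3 white columns (dpy-8 at 832, 677 and 566 CPM) and genes of the lower row peak in the 2 grey ones (mlt-7 at 633 and 511 CPM).

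Genes of the precuticle matrix moved with the furrow collagens. Of 16 tested, 9 were higher at 18 h, 26 h and 34 h and 1 was higher at 22 h and 30 h, with a median difference of 3.24 log2. Backgrounds over all tested genes were 5.69% and 7.22%, so the count of 1 lies near its background. The zona-pellucida-domain protein gene noah-1 had 6682, 132, 4485, 123 and 3526 CPM in order of time, a difference of 5.21 ± 0.17 log2 (adjusted p = 0.000923). The lipocalin gene lpr-4 had 1405, 13.8, 779, 13.9 and 596 CPM, a difference of 5.97 ± 0.28 log2 (adjusted p = 0.00177). Another lipocalin gene, lpr-5, had 1433, 22.3, 1078, 27.6 and 978 CPM, a difference of 5.53 ± 0.25 log2 (adjusted p = 0.00154). In all 3 the phases did not overlap, and the values at 34 h were below those at 18 h. The lipocalin gene lpr-3 had 3916, 49.3, 2003, 63 and 1648 CPM and differed by 5.37 ± 0.42 log2 (adjusted p = 0.00709). The fibrillin-related gene fbn-1 was not called: it had 1701 CPM at 18 h, 118 at 22 h, 280 at 26 h, 203 at 30 h and 209 at 34 h, a difference of 1.40 ± 0.85 log2 (adjusted p = 0.34). The member higher at 22 h and 30 h was fbl-1, a fibulin known from basement membranes rather than the cuticle, with 32.5, 62.1, 18.9, 59.3 and 18.3 CPM (-1.43 ± 0.19 log2, adjusted p = 0.0139). Without the 34 h library 6 members were higher at 18 h and 26 h, and the call of lpr-3 ended (adjusted p = 0.056). The call of fbl-1 ended without the 22 h (adjusted p = 0.082), 30 h (0.0977) or 34 h library (0.0804), and without the time term (0.0661).

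Collagens that shape the body outside the furrows also had more footprints at 18 h, 26 h and 34 h, with a weaker hold on the repeats. Of 14 tested, 7 were called higher at that phase (background 5.69%), and the median over the 14 was 4.54 log2. The collagen gene lon-3, which sets body length, had 296, 11.2, 1162, 17.7 and 1558 CPM, a difference of 5.90 ± 0.46 log2 (adjusted p = 0.00702). The collagen gene sqt-3 had 2352, 167, 6774, 192 and 7231 CPM, a difference of 4.80 ± 0.42 log2 (adjusted p = 0.00876). In both the 18 h value was the lowest of its phase and the phases did not overlap. Levels of dpy-5 were 1461 CPM at 18 h and 1426 at 22 h, then 6689, 1525 and 6472, so that 26 h and 34 h stood above the rest and 18 h did not (1.51 ± 0.56 log2, adjusted p = 0.157). Without 18 h dpy-5 was called (2.18 log2, adjusted p = 0.00143). The list as a whole had 10 calls without 18 h and 11 without 26 h, but 1 without 22 h, 30 h or 34 h. Calls of lon-3 ended without 22 h (adjusted p = 0.0867) or 30 h (0.0821), and those of sqt-3 without 22 h (0.0913), 30 h (0.0893) or 34 h (0.0561).

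A pair of body-shape collagens showed how time enters this comparison. The gene bli-2, whose collagen belongs to the struts of the adult cuticle, had 1.94, 0.495, 58.3, 2.98 and 3360 CPM. Its fitted phase difference of 6.19 ± 1.01 log2 (adjusted p = 0.0299) stood beside a trend of 10.1 log2 over 16 h, and its 18 h value lay below its 30 h value. The collagen gene rol-1 had 0.134, 0, 1.96, 0.744 and 2378 CPM, a fitted trend of 17.7 log2, and no phase call (adjusted p = 0.0598). DESeq2 called rol-1 (7.52 log2, adjusted p = 9.31e-05), as did edgeR without 18 h (6.54 log2, adjusted p = 0.000478) and without 26 h (8.12 log2, adjusted p = 0.00316). Both are high at 34 h, and the straight line does not describe a rise of that kind. Without the 34 h library the call of bli-2 ended (adjusted p = 0.0863), as it did without 18 h (0.123), without the time term (0.269) and with no filter on low counts (0.0579).

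The large col family split between the phases. Of 127 col genes tested, 12 were higher at 18 h, 26 h and 34 h and 30 were higher at 22 h and 30 h, with a median of -0.71 log2. The backgrounds over all tested genes were 5.69% and 7.22%. Footprints of col-39 stood at 11.1 CPM at 18 h, 2371 at 22 h, 26.8 at 26 h, 4479 at 30 h and 37.9 at 34 h. This difference of -7.16 ± 0.19 log2 (adjusted p = 0.000827) ran against that of the furrow collagens. For col-146 the values were 0.938, 287, 2.11, 700 and 5.6 CPM (-7.64 ± 0.12 log2, adjusted p = 0.000627). For col-12 they were 0.402, 113, 2.53, 280 and 10.6 CPM (-6.24 ± 0.35 log2, adjusted p = 0.00323). All 3 also rose over time within each phase, with trends of 1.77 (col-39), 2.57 (col-146) and 3.99 log2 (col-12) over 16 h. In the other direction, col-128 had 95.3, 0.849, 59.8, 1.12 and 43.0 CPM (6.03 ± 0.32 log2, adjusted p = 0.00217). The col gene with the most counts, col-73, was not called, with 464, 731, 2914, 1020 and 5507 CPM (1.18 ± 0.53 log2, adjusted p = 0.224), but DESeq2 called it (1.19 log2, adjusted p = 0.0463), as did the fit without 18 h (1.90 log2, adjusted p = 0.00602). Without the time term the call of col-12 ended (adjusted p = 0.0972). Counts for the family fell to 7 and 13 without 22 h, 6 and 16 without 30 h, and 7 and 16 without 34 h, and rose to 19 and 33 without 18 h and 20 and 39 without 26 h. Members of this family resemble one another, and the sources used here do not say how a read matching several of them was counted.

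Collagen is modified in the endoplasmic reticulum and cross-linked after secretion. Of 19 genes for enzymes and cofactors of these steps, 11 were not called, 5 were higher at 18 h, 26 h and 34 h (dpy-11, phy-2, pdi-2, dnj-27 and dpy-18) and 3 were higher at 22 h and 30 h (mlt-7, doxa-1 and tsp-15). Beside these counts stand backgrounds of 5.69% and 7.22% of all tested genes. The thioredoxin-like gene dpy-11 had 941, 126, 1007, 172 and 1476 CPM (2.93 ± 0.14 log2, adjusted p = 0.00155). The gene of a prolyl 4-hydroxylase catalytic subunit, phy-2, had 269, 56.6, 361, 76.9 and 468 CPM (2.44 ± 0.10 log2, adjusted p = 0.00122). Its partner subunit is encoded by pdi-2, the most counted gene of the list, which had 10100, 2617, 8776, 3373 and 11180 CPM (1.76 ± 0.15 log2, adjusted p = 0.00587). These 3 genes kept at least 56.6 CPM in every library. On the other side, the peroxidase gene mlt-7 had 29.8, 633, 22.6, 511 and 29.4 CPM (-4.38 ± 0.19 log2, adjusted p = 0.00137). The dual oxidase maturation factor gene doxa-1 had 3.25, 41.7, 3.60, 33.2 and 3.37 CPM (-3.45 ± 0.16 log2, adjusted p = 0.00149). The tetraspanin gene tsp-15, whose product is needed for dual oxidase activity, had 9.11, 23.5, 6.30, 15.5 and 4.63 CPM (-1.56 ± 0.13 log2, adjusted p = 0.00466). The dual oxidase gene itself, bli-3, had 53.6, 62.3, 47, 44 and 50.9 CPM, with phases that overlapped and a difference of -0.06 ± 0.16 log2 (adjusted p = 0.852), which was positive without 18 h (0.03) or 22 h (0.22). Calls of pdi-2 ended without 22 h (adjusted p = 0.0638) or 30 h (0.0521), and those of tsp-15 without 22 h (0.0698), 30 h (0.0503) or the time term (0.0784). The list had 3 and 2 calls without 30 h. The call of dpy-18 ended without 30 h (adjusted p = 0.0691), 34 h (0.0595) or the time term (0.0551).

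Among genes known for moulting defects or moulting-cycle expression, 14 of 28 were higher at 18 h, 26 h and 34 h and 2 were higher at 22 h and 30 h. With 5.69% and 7.22% of all tested genes called in these directions, the count of 2 lies near the background. The largest difference was that of mltn-1, a relative of the moulting gene mlt-10, with 28.3, 0.212, 57.1, 0.425 and 68.2 CPM (7.30 ± 0.28 log2, adjusted p = 0.00106). A second member of its class, mltn-9, which is not among the 28, had 253, 3.29, 283, 5.84 and 522 CPM (6.26 ± 0.24 log2, adjusted p = 0.00106). The protease inhibitor gene mlt-11 had 6598, 78.4, 4382, 96.2 and 3936 CPM (5.79 ± 0.29 log2, adjusted p = 0.00236). The gene acn-1, related to angiotensin-converting enzyme but without its catalytic residues, had 965, 40.7, 1015, 33.8 and 771 CPM (4.63 ± 0.15 log2, adjusted p = 0.000923). Each of these 4 genes separated the phases without overlap and was called with any library left out. The hedgehog-related gene qua-1 had 605, 21.7, 1354, 19 and 1378 CPM (5.69 ± 0.43 log2, adjusted p = 0.00629). The astacin protease gene nas-37, needed to shed the old cuticle, had 198, 9.69, 419, 7.28 and 397 CPM (5.25 ± 0.45 log2, adjusted p = 0.00846). The 2 members on the other side were the patched-related gene ptr-23, with 38.1, 234.5, 30.5, 180 and 13.6 CPM (-3.02 ± 0.21 log2, adjusted p = 0.00343), and osm-11, a Notch co-ligand gene, with 232, 535, 175, 384 and 155 CPM (-1.29 ± 0.11 log2, adjusted p = 0.00504). The count of 14 became 6 without 22 h, 6 without 30 h and 9 without 34 h. Calls of qua-1 ended without 22 h (adjusted p = 0.0562) or 30 h (0.0596), of nas-37 without 22 h (0.0613), 30 h (0.0657) or 34 h (0.0593), and of osm-11 without 22 h (0.0596).

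Astacin metalloproteases, which include moulting enzymes, were otherwise mixed, with 3 of 26 higher at 18 h, 26 h and 34 h and 6 higher at 22 h and 30 h. Across all tested genes the shares called were 5.69% and 7.22%. The gene nas-4 had 54.7, 3.50, 46.4, 3.13 and 32.8 CPM (3.73 ± 0.15 log2, adjusted p = 0.00121). The gene nas-9 ran the other way, with 2.14, 51.3, 2.97, 57.6 and 3.65 CPM (-4.24 ± 0.13 log2, adjusted p = 0.000923). The third member of the first direction besides nas-4 and nas-37, nas-3, had 43.6, 7.99, 8.41, 1.59 and 1.34 CPM, so that its phases overlapped and its course was mainly a fall (trend -4.94 log2 over 16 h; phase 1.18 ± 0.15 log2, adjusted p = 0.0138). The call of nas-3 ended without 22 h (adjusted p = 0.122) or 30 h (0.0764), without the time term (0.61), and under library totals (0.97 log2). For the list, counts were 1 and 1 without 22 h, 1 and 1 without 30 h, 2 and 3 without 34 h, 6 and 7 without 18 h, and 4 and 9 without 26 h.

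Hedgehog-related proteins and patched-related membrane proteins are large nematode families used at apical surfaces. Of 44 hedgehog-related genes, 16 were higher at 18 h, 26 h and 34 h and 8 at 22 h and 30 h; of 29 patched-related genes, 9 and 5 were. Both families stand beside backgrounds of 5.69% and 7.22% of all tested genes. Differences within the hedgehog-related family spanned -8.07 to 6.46 log2. Footprints of wrt-2 stood at 373, 5.02, 425, 3.98 and 386 CPM (6.46 ± 0.19 log2, adjusted p = 0.000923), and those of wrt-1 at 543, 11.5, 879, 8.71 and 810 CPM (6.18 ± 0.34 log2, adjusted p = 0.00287). These warthog genes were high in every library of the first phase and low in both of the second. The groundhog-like genes grl-21 and grl-4 were the mirror image. Values of grl-4 were 6.6, 805, 5.11, 483 and 2.92 CPM (-7.06 ± 0.15 log2, adjusted p = 0.000627). Values of grl-21 were 1.68, 839, 3.90, 549 and 1.99 CPM (-8.07 ± 0.56 log2, adjusted p = 0.00556). The most counted member, grl-7, had 242, 48.7, 1520, 27.6 and 1401 CPM and was not called (4.46 ± 0.99 log2, adjusted p = 0.0573), although the phases did not overlap and DESeq2 (adjusted p = 5.54e-05), limma (0.0315), a fit to all 10 libraries (0.016) and the fit without 18 h (0.00171) called it. Among patched-related genes, ptr-4 had 502, 19.8, 476, 20.6 and 337 CPM (4.42 ± 0.18 log2, adjusted p = 0.00129). In the opposite direction ptr-3 had 4.12, 43.1, 3.27, 31.3 and 3.04 CPM (-3.41 ± 0.14 log2, adjusted p = 0.00122). Leaving out 22 h, 30 h or 34 h gave 5, 5 and 8 hedgehog-related genes in the first direction and 3 in the second, and ended the call of grl-21 (adjusted p = 0.0708, 0.0605 and 0.053), while leaving out 18 h gave 21 and 8. Patched-related genes of the first direction numbered 5 without 22 h, 6 without 30 h and 5 without 34 h, and those of the second 3 without 34 h.

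**Figure D2:**
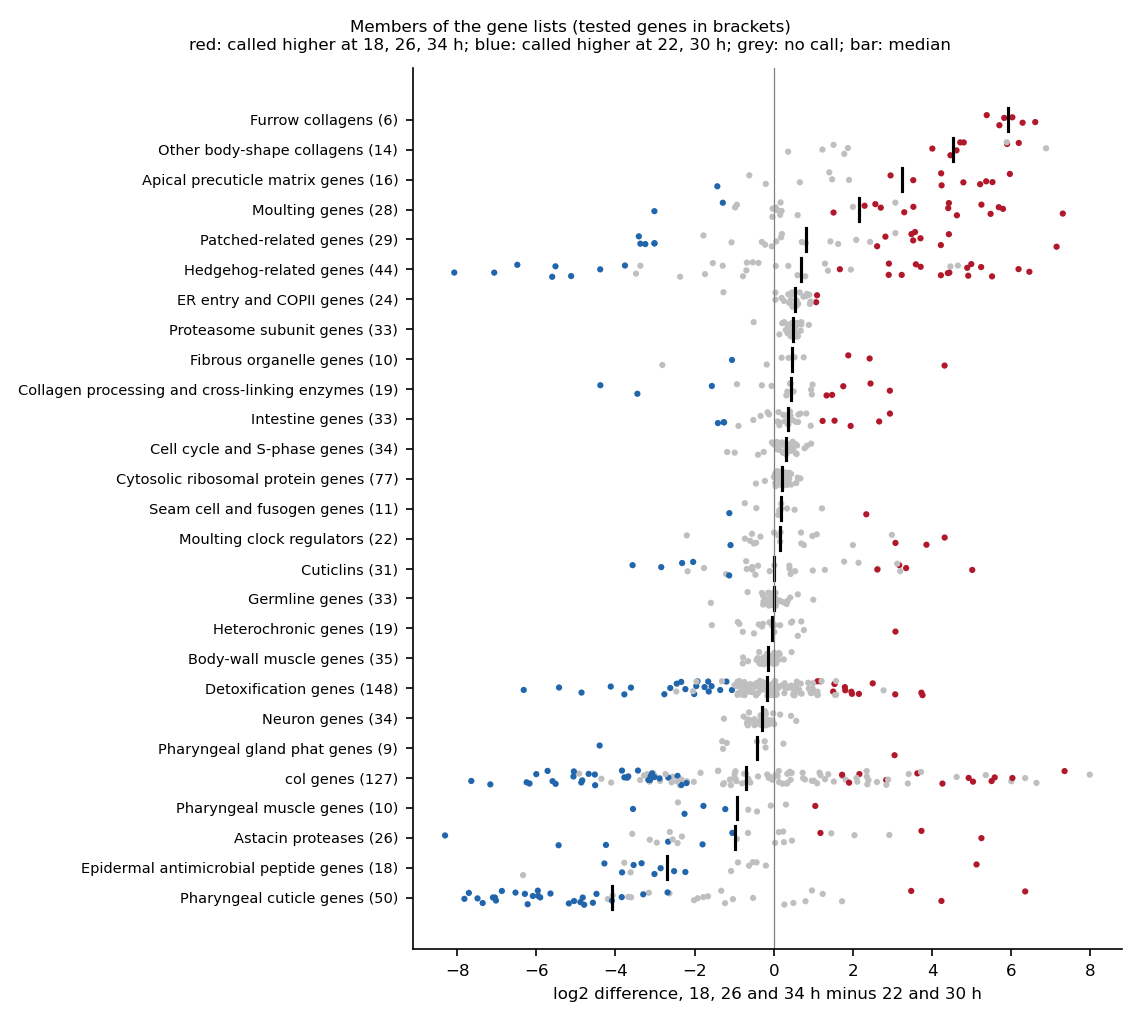
log2 difference between the phases (positive when higher at 18 h, 26 h and 34 h) for each tested member of the gene lists, 1 point per gene, in order of the list medians (black bars). Points of the furrow collagens are all red at 5.38 to 6.61 log2, pharyngeal cuticle genes reach -7.82 log2, and col and hedgehog-related genes extend far to both sides.

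The cuticle of the pharynx ran against the furrows of the body. Of 50 pharyngeal cuticle genes tested, 27 were higher at 22 h and 30 h and 3 at 18 h, 26 h and 34 h, with a median of -4.08 log2. As 7.22% and 5.69% of all tested genes were called in these directions, the count of 3 lies near the background. The abu genes encode repetitive proteins of this cuticle. Values of abu-10 were 0.436, 84.1, 0.476, 66.7 and 0.325 CPM (-7.49 ± 0.17 log2, adjusted p = 0.000627). Values of abu-8 were 0.201, 97.2, 0.743, 69.1 and 0.568 CPM (-7.36 ± 0.52 log2, adjusted p = 0.00579). The gene dct-5, placed on this list, had 0.134, 63.1, 0.416, 87.6 and 0.609 CPM (-7.70 ± 0.24 log2, adjusted p = 0.000923). At 18 h, 26 h and 34 h these 3 genes were all below 1 CPM. The most counted member, abu-14, had 30.9, 421, 240, 312 and 99.1 CPM and was not called (-1.66 ± 0.92 log2, adjusted p = 0.298), its 26 h value being far above those at 18 h and 34 h, and it was called without 26 h (-2.77 log2, adjusted p = 0.0485). Of the 3 exceptions (idpp-1, abu-13 and idpp-2), idpp-1 had 357, 3.32, 228, 3.83 and 290 CPM (6.35 ± 0.30 log2, adjusted p = 0.00179). The count of 27 became 7 without 22 h, 7 without 30 h and 10 without 34 h, and the call of abu-8 ended in each of these fits (adjusted p = 0.0611, 0.0518 and 0.0593), as did those of abu-13 (0.126, 0.129 and 0.086) and idpp-2 (0.104, 0.134 and 0.133). Several abu genes are close copies of one another, so their reads may be shared between them.

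Pharyngeal muscle genes stood on the same side as the pharyngeal cuticle, with smaller differences. Of 10 tested, 4 were higher at 22 h and 30 h (tnt-4, tnc-2, myo-2 and marg-1) and 1 was higher at 18 h, 26 h and 34 h. Since 7.22% and 5.69% of all tested genes were called in these directions, the count of 1 lies near the background. The pharyngeal troponin T gene tnt-4 had 41.5, 163, 32.4, 132 and 21.4 CPM (-2.26 ± 0.11 log2, adjusted p = 0.00171). The pharyngeal troponin C gene tnc-2 had 29, 83.4, 18.6, 52.4 and 13.2 CPM (-1.78 ± 0.10 log2, adjusted p = 0.00218). The pharyngeal myosin heavy chain gene myo-2 had 218, 428, 190, 427 and 147 CPM (-1.23 ± 0.12 log2, adjusted p = 0.00738). A second pharyngeal myosin heavy chain gene, myo-1, had 266, 350, 258, 321 and 225 CPM, a difference under 1 log2 (-0.42 ± 0.09 log2, adjusted p = 0.0424). The exception was mlc-5, a myosin light chain gene that is also used outside muscle, with 210, 96.1, 188, 102 and 213 CPM (1.05 ± 0.11 log2, adjusted p = 0.0088). The 3 pharyngeal muscle markers (myo-1, myo-2 and tnt-4), all detected in all 5 libraries, summed to 525, 941, 480, 881 and 392 CPM in order of time, and their part in the result for the pharyngeal cuticle was not tested. For comparison, edgeR, DESeq2 and limma each made 0 calls among 35 genes of body-wall muscle, although 12 had an unadjusted p under 0.05. Their median was -0.16 log2 and 27 of the 35 lay below 0. Under library totals the median was -0.37 log2, with 33 below 0. In that fit 15 passed the adjusted p toward 22 h and 30 h, and 1 of the genes was called there. The body-wall myosin gene unc-54 had 7920, 8680, 7200, 8226 and 7601 CPM (-0.15 ± 0.08 log2, adjusted p = 0.268). The call of myo-2 ended without 30 h (adjusted p = 0.0584) and that of tnc-2 without the time term (0.0774). The call of marg-1 ended without 22 h (adjusted p = 0.119), 30 h (0.112), 34 h (0.0866) or the time term (0.0843). The call of mlc-5 ended without 22 h (adjusted p = 0.0873), 30 h (0.0744) or 34 h (0.0554), and fell under 1 log2 without 18 h (0.98) and under library totals (0.83).

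Of 18 antimicrobial peptide genes of the epidermis, 8 were higher at 22 h and 30 h, 1 was higher at 18 h, 26 h and 34 h and 9 were not called, with a median of -2.69 log2. Set against 7.22% and 5.69% of all tested genes, the count of 1 lies near the background. Footprints of nlp-24 stood at 59.6, 1001, 62.6, 579 and 80.9 CPM (-3.54 ± 0.32 log2, adjusted p = 0.00913). Those of nlp-29, a peptide gene known for its response to fungal infection and wounding, stood at 19.2, 141.8, 11.6, 95.3 and 12.9 CPM (-3.01 ± 0.19 log2, adjusted p = 0.00281). Those of nlp-34 stood at 8.41, 80.2, 8.83, 58.5 and 11.6 CPM (-2.86 ± 0.22 log2, adjusted p = 0.00466). The exception was the caenacin gene cnc-3, with 43.1, 2.16, 62.9, 0.903 and 60.1 CPM (5.12 ± 0.49 log2, adjusted p = 0.0106), a call that ended without 34 h (adjusted p = 0.0687). Without 22 h, 5 genes of this list were called higher at the remaining library of the second phase.

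Of 22 regulators linked to the moulting cycle, 4 were called, 3 higher at 18 h, 26 h and 34 h and 1 higher at 22 h and 30 h (6 and 1 without 18 h, 6 and 3 without 26 h, 2 and 0 without 22 h or 30 h, 3 and 2 without 34 h). Over all tested genes 5.69% and 7.22% were called in these directions, so the 1 call at 22 h and 30 h lies near the background. The transcription factor gene grh-1, the grainyhead homologue, had 182, 11.6, 153, 8.55 and 106 CPM (3.86 ± 0.13 log2, adjusted p = 0.000923). The gene lin-42, the homologue of the clock gene period, had 340, 31.4, 237, 31 and 222 CPM (3.08 ± 0.16 log2, adjusted p = 0.00182). The nuclear receptor gene nhr-74 had 26.1, 1.41, 14.8, 0.531 and 17.9 CPM (4.32 ± 0.43 log2, adjusted p = 0.00913). The homeodomain gene dve-1 was higher at the other phase, with 13.9, 32.3, 14.3, 30.4 and 15.7 CPM (-1.09 ± 0.12 log2, adjusted p = 0.00846). The zinc finger gene blmp-1 passed the test with a difference under 1 log2, at 108, 65.2, 102, 59.8 and 90.9 CPM (0.69 ± 0.10 log2, adjusted p = 0.0156). Calls of nhr-74 ended without 22 h (adjusted p = 0.0553) or 30 h (0.0605), and those of dve-1 without 22 h (0.0891) or 30 h (0.0617).

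Other regulators of moulting were not called between these phases. The ROR homologue gene nhr-23 had 64.2 CPM at 18 h, 28.3 at 22 h, 18.8 at 26 h, 38.3 at 30 h and 35.0 at 34 h (0.17 ± 0.56 log2, adjusted p = 0.867). The nuclear receptor gene nhr-25 had 21.9, 24.6, 45.9, 19.1 and 4.02 CPM (0.01 ± 0.95 log2, adjusted p = 0.996). In both, libraries of the same phase differed more than 2-fold. In the libraries at 24 h and 32 h against those at 20 h, 28 h and 36 h, which share none with these, nhr-23 differed by 2.65 log2 and the membrane-bound factor gene myrf-1 by 1.99 log2. Between 18 h, 26 h and 34 h and the other phase, myrf-1 had 478, 172, 235.2, 201 and 241 CPM (0.69 ± 0.31 log2, adjusted p = 0.215). For nhr-85 (-2.2 ± 0.72 log2, adjusted p = 0.126) and bed-3 (2.99 ± 0.86 log2, adjusted p = 0.0984) the phases did not overlap. DESeq2 called nhr-85 (adjusted p = 0.00496) and bed-3 (0.000204), a fit to all 10 libraries called both (0.0357 and 0.0326), and so did the fit without 26 h (0.047 and 0.0433). Without 34 h nhr-85 was called (0.039), and without 18 h bed-3 was (0.00217). The GATA factor gene elt-3 (-0.60 ± 0.20 log2, adjusted p = 0.116) was not called. The gene lin-29, which acts at the larva-to-adult switch, rose with time, while its phase difference missed the threshold, at 1.01, 1.17, 6.69, 10.0 and 32.0 CPM (trend 5.19 log2 over 16 h, adjusted p = 0.0034; phase 0.76 ± 0.24 log2, adjusted p = 0.099).

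Attachments between epidermis, muscle and cuticle run through fibrous organelles. Of 10 such genes, 3 were higher at 18 h, 26 h and 34 h (mua-3, mua-6 and ifa-3) and 1 at 22 h and 30 h (vab-10). Among all tested genes 5.69% and 7.22% were called in these directions, so the 1 call of vab-10 lies near the background. The transmembrane protein gene mua-3 had 2177, 385, 2249, 548 and 3005 CPM (2.42 ± 0.14 log2, adjusted p = 0.00225). The intermediate filament gene mua-6 had 523, 111, 489, 186 and 595 CPM (1.88 ± 0.23 log2, adjusted p = 0.0133). The spectraplakin gene vab-10 had 964, 1524, 709, 2064 and 897 CPM (-1.06 ± 0.21 log2, adjusted p = 0.0406). The gene mup-4, a relative of mua-3, had 29.9, 656, 195, 744 and 88.4 CPM and missed the threshold on the other side (-2.81 ± 0.79 log2, adjusted p = 0.0928), with no overlap between phases, and was called by DESeq2 (adjusted p = 0.0236), with all 10 libraries (0.0197) and without 26 h (0.00704). The call of mua-6 ended without 22 h (adjusted p = 0.0556) or 34 h (0.0677), and that of ifa-3 without 22 h (0.0716), 30 h (0.0584) or the time term (0.0706). The call of vab-10 ended without 22 h (adjusted p = 0.119), 26 h (0.0615), 30 h (0.185) or 34 h (0.185), and without the time term (0.0565).

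Of 33 intestinal genes, 5 were higher at 18 h, 26 h and 34 h and 3 were higher at 22 h and 30 h, where 5.69% and 7.22% of all tested genes were called, so the second count lies near the background. The cathepsin B-like protease gene cpr-6 had 720, 158, 1177, 174 and 1331 CPM (2.66 ± 0.17 log2, adjusted p = 0.00268). The most counted gene of the list, the aspartyl protease gene asp-1, had 4561, 3673, 4564, 3841 and 4442 CPM and was not called (0.28 ± 0.08 log2, adjusted p = 0.0823). The intestinal intermediate filament gene ifc-2 had 157, 338, 143, 427 and 131 CPM (-1.41 ± 0.16 log2, adjusted p = 0.00959), and a second one, ifb-2, had 426, 851, 371, 882 and 295 CPM (-1.26 ± 0.13 log2, adjusted p = 0.00736). The call of ifc-2 ended without 34 h (adjusted p = 0.0611) and that of ifb-2 without 30 h (0.0571). The intestine list had 2 and 2 calls without 22 h, 1 and 1 without 30 h, and 3 and 1 without 34 h. Of 148 detoxification genes, 13 were higher at 18 h, 26 h and 34 h and 21 at 22 h and 30 h, beside the same backgrounds. The cytochrome P450 gene cyp-32A1 had 0.536, 27.2, 0.565, 25.4 and 0.731 CPM (-5.43 ± 0.18 log2, adjusted p = 0.000923), and cyp-14A5 had 4.89, 169, 3.60, 54.6 and 2.31 CPM (-4.86 ± 0.36 log2, adjusted p = 0.00595). In the other direction, cyp-23A1 had 19.1, 1.59, 10.9, 1.33 and 8.40 CPM (3.07 ± 0.21 log2, adjusted p = 0.00331). Detoxification counts were 1 and 4 without 22 h, 1 and 11 without 30 h, and 6 and 11 without 34 h.

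Several housekeeping groups differed by less than 1 log2 but in 1 direction. All but 1 of 33 proteasome subunit genes lay above 0, with a median of 0.48 log2. In 28 of them the phases did not overlap, where 20.2% of all tested genes had no overlap in this direction. With no minimum size 21 passed the adjusted p, where 9.13% of all tested genes did so in this direction and 10.3% in the other. The gene rpn-1, of the proteasome's regulatory particle, had 480, 348, 493, 405 and 540 CPM (0.43 ± 0.10 log2, adjusted p = 0.048). No proteasome gene was called by edgeR, DESeq2 or limma with the minimum of 1 log2, and 29 had an unadjusted p under 0.05. Under library totals alone the median was 0.26 log2 and 2 passed the adjusted p, so the passes, though not the direction, rest on the scaling. Genes for entry into the endoplasmic reticulum and for COPII vesicles, which carry collagen out of it, were alike. Their median was 0.55 log2 over 24 genes. In 19 the phases did not overlap and 12 passed the adjusted p (8 under library totals), beside the same backgrounds. The COPII coat gene sec-24.1 had 337, 160, 334, 180 and 413 CPM (1.09 ± 0.11 log2, adjusted p = 0.0073). The translocon subunit gene sec-61.B had 482, 194, 441, 289 and 574 CPM (1.07 ± 0.18 log2, adjusted p = 0.0247). These 2 genes are the list's calls, and under library totals they were under 1 log2 (0.88 and 0.85). The call of sec-24.1 ended without 22 h (adjusted p = 0.0815) or 30 h (0.0723). That of sec-61.B ended without 22 h (adjusted p = 0.136), 30 h (0.077), 34 h (0.11) or the time term (0.0693), and was 0.88 log2 without 18 h. The exception on this list was the chaperone gene hsp-4, the BiP homologue, with 300, 1013, 353, 1384 and 1046 CPM (-1.27 ± 0.28 log2, adjusted p = 0.0556), called by DESeq2 (0.000287), with all 10 libraries (0.0104), under library totals (0.0276), without 26 h (0.0399) and without 34 h (0.0218).

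**Figure D3:**
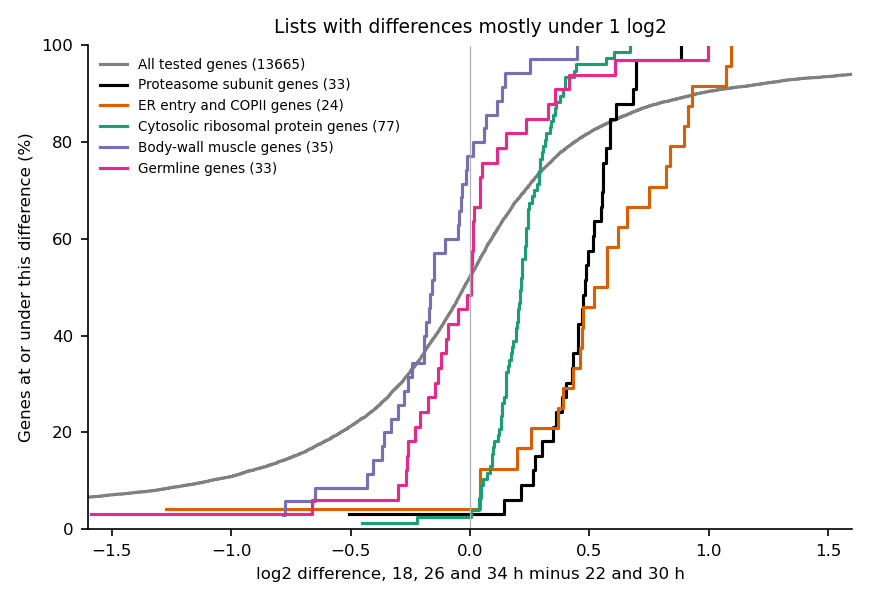
Cumulative share of genes (%) against the log2 difference between the phases for 5 lists and for all tested genes, each step being 1 gene. The curves of proteasome (median 0.48) and endoplasmic reticulum genes (median 0.55) cross 50% to the right of all tested genes (median -0.02), and that of body-wall muscle (median -0.16) to the left.

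Ribosomal protein genes, 77 tested, had a median of 0.21 log2, with 75 above 0, but under library totals the median was 0.00 with 36 above 0, so that no direction can be given. Their stalk protein gene rla-0 had 2494, 2048, 3079, 2590 and 3934 CPM and overlapping phases (0.44 ± 0.08 log2, adjusted p = 0.0267). None of the ribosomal genes was called by edgeR, DESeq2 or limma, and 22 had an unadjusted p under 0.05. Of 33 germline genes none was called by the same tools (2 with an unadjusted p under 0.05), but 21 rose with time, where 8.37% of all tested genes did. Of 34 neuron genes none was called by the same tools either (11 with an unadjusted p under 0.05), and 15 fell with time, where 3.82% of all tested genes did. Between the phases 30 of the neuron genes lay below 0, with a median of -0.30 log2. Under library totals that median was -0.52 log2 and 11 passed the adjusted p. Of 34 cell cycle genes none was called by edgeR or limma and 1 by DESeq2 (16 with an unadjusted p under 0.05). Their median was 0.31 log2 with 28 above 0, and under library totals 0.09 log2 with 22 above 0.

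The linear trend that the comparison removed was itself large: 1144 genes rose and 522 fell by at least 1 log2 over 16 h. Of the genes called between phases, 57 in the first direction and 26 in the second also rose, and 24 and 75 also fell. Since 26 h is the mean time of both phases, a straight drift adds to both alike, and without the time term it counts as scatter: 508 and 530 genes were then called. A curved course, such as the steep rise of bli-2 at 34 h, does not cancel in this way and can enter the phase difference. Without the 34 h library no gene passed as rising or falling in edgeR, although 1990 had an unadjusted p under 0.05, so the trend calls rest on that library. Rising and falling genes numbered 751 and 69 without 18 h, 435 and 31 without 22 h, and 382 and 23 without 30 h.

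The other 5 libraries, which played no part in these calls, place the groups 2 h away. Of the genes higher at 18 h, 26 h and 34 h, 117 were also called higher at 24 h and 32 h than at 20 h, 28 h and 36 h (15.1% of the 777 and 22.1% of the genes called higher at 24 h and 32 h), and 88 were called lower (11.3% of the 777 and 13.2% of the other list). In all, 529 genes (3.88%) were called higher at 24 h and 32 h and 669 (4.90%) higher at 20 h, 28 h and 36 h, together 1198 of 13647 tested (8.78%). All 6 furrow collagens and all 9 precuticle genes of the first direction were higher at 24 h and 32 h, with medians of 3.33 and 3.52 log2. The furrow collagens took 0.392% and 0.236% of counts at 24 h and 32 h, and 0.0915%, 0.0181% and 0.0117% at 20 h, 28 h and 36 h. Of the 7 called body-shape collagens, 5 were instead called higher at 20 h, 28 h and 36 h and none was called higher at 24 h and 32 h, with a median of -2.44 log2. Levels of 6 lay on the side of 20 h, 28 h and 36 h and that of 1 on the other. Of the 27 pharyngeal cuticle genes higher at 22 h and 30 h, 11 were called higher at 20 h, 28 h and 36 h, and 25 had levels on that side. All 4 pharyngeal muscle genes of that direction had levels on the side of 24 h and 32 h, 1 of them called. Genes not called here could differ there: fbn-1 was 6.13 log2 higher at 24 h and 32 h, and dpy-5 4.57 log2 lower (-4.57 ± 0.28 log2). These counts need both the 24 h and the 32 h library: without either, edgeR called no gene, with 2350 (without 24 h) and 1910 genes (without 32 h) at an unadjusted p under 0.05. Without 20 h the calls numbered 267 and 442, and without 28 h 1028 and 1054.

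**Figure D4:**
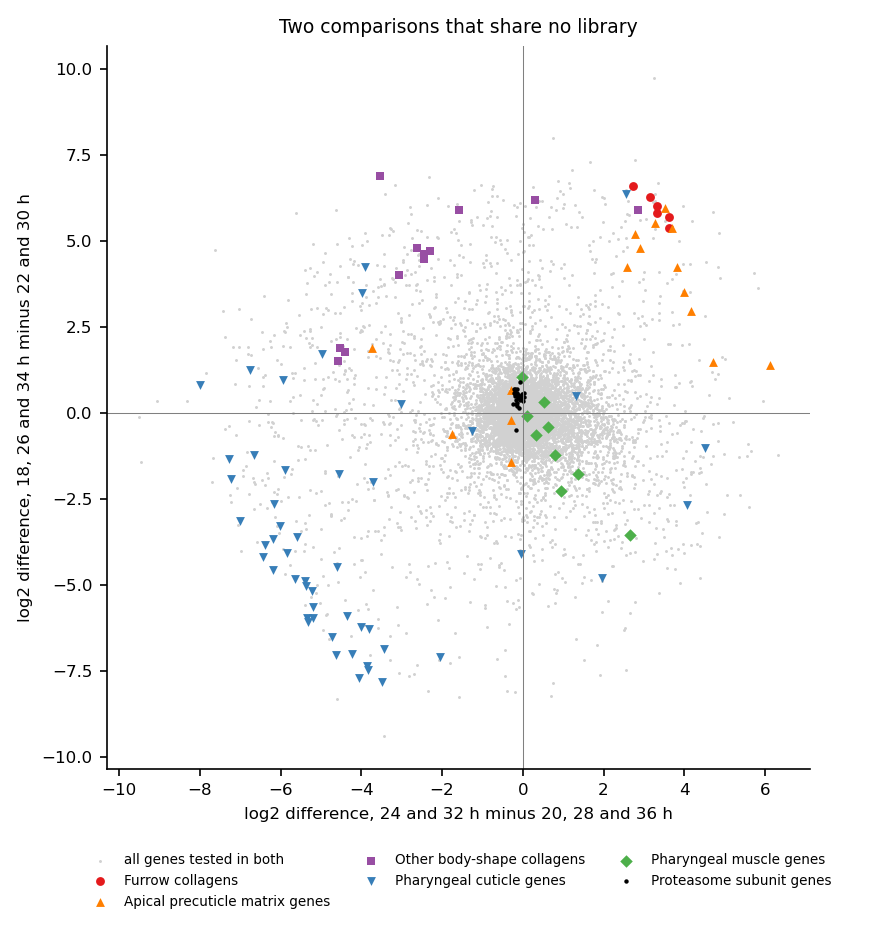
log2 difference between 18 h, 26 h and 34 h and 22 h and 30 h (vertical) against that between 24 h and 32 h and 20 h, 28 h and 36 h (horizontal) for each gene tested in both, with 6 gene lists coloured and no library shared between the axes. Furrow collagens and most precuticle genes lie at the upper right, most body-shape collagens at the upper left and most pharyngeal cuticle genes at the lower left.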

How the data were processed

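Footprints were measured in whole N2 worms. Per the labels' protocols, purified monosomes gave protected RNA of about 28 to 30 nucleotides by gel excision, and libraries were made with a small RNA kit. Bowtie is listed in the submitters' processing notes without a version. The sources used here do not give the build, annotation, strand or treatment of multiply matching reads, and no coordinates are printed. The authors deposited raw counts per gene (20182 genes, 10 libraries, no scaling) and log2 values, which equal log2 of the counts scaled to the mean library total plus 8 (largest difference 5e-05). Symbols came from Ensembl 115 (19513 identifiers found, 669 not).

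A gene was tested if at least 2 of the 5 libraries reached the CPM that equals 10 counts at the median depth. edgeR 4.0.16 (R 4.3.3) fitted phase and linear time centred at 26 h to TMM-scaled counts, with robust quasi-likelihood dispersions (2 residual degrees of freedom, prior 2.48) and Benjamini-Hochberg adjustment over all tested genes. Errors are SEs worked back from that fit's test, as the absolute log2 difference divided by the square root of the quasi-likelihood F statistic. Printed CPM use TMM factors of all 10 libraries. P-values measure spread between these libraries. Alternatives used DESeq2 1.42.0, limma 3.58.1, other scalings, filters and size limits, no time term, neighbouring hours as blocks, thinning and leaving out each library. Tables and figures used Python 3.11.15 with pandas 2.3.3, numpy 2.4.6 and matplotlib 3.10.9.

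The members and the 27 gene lists were chosen with earlier results of these data known, so list counts are descriptions. Named genes are, per direction, the 12 called genes with the largest differences (mean of at least 10 CPM, gene-class name, phases not overlapping, at most 2 per class), up to 3 called members per direction and the most counted member of each list, and 10 regulators; others are named as small counts. A total of 17 listed names were not found. Protein and promoter sequences were not used here.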

Additional observations from a re-analysis of the deposited data

Results flagged for a closer look

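Among the genes followed by name, the astacin gene nas-3 was called and moved in opposite directions in the first and last pair of neighbouring libraries. Its footprints were 2.43 log2 higher at 18 h than at 22 h, but at 34 h they differed from 30 h by -0.24 log2 (log2 of CPM + 0.1). The difference between the pairs was not tested, and nas-3 fell through the series from 43.6 CPM at 18 h to 1.34 at 34 h.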

How the results depend on the processing

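Other scalings, filters and tools kept both counts of calls within 1.5 times: over median-ratio factors, library totals, removal of the filter, limma on CPM or on the deposited values, DESeq2, a minimum mean of 50 counts, edgeR's newer dispersions, all 10 libraries and thinning, 642 to 943 genes were higher at 18 h, 26 h and 34 h and 834 to 1366 at 22 h and 30 h. DESeq2 shared 767 and 931 calls with the main result, and all 10 libraries 748 and 941. With neighbouring hours as a replicate block (18 h with 22 h, 26 h with 30 h, 34 h alone) in place of linear time, chosen after seeing the data, 426 and 562 were called, 390 and 445 of them also in the main result. The hours alone define that block, since the labels give no replicate numbers; it leaves 34 h out of the phase difference, and among the named genes it ended 15 calls and added 2. Without the time term 508 and 530 were called, with a minimum of 2 log2 499 and 524, and with no minimum size 1247 and 1402. Leaving out each library in turn gave 239 to 882 and 232 to 938. With 1 library left at 22 h or 30 h, it was assumed to vary like the others. Genes rising with time ran from 0 to 1215 and falling from 0 to 380 with a library left out; the falling count was 1215 under library totals and 1182 with all 10 libraries. Genes higher at 24 h and 32 h ran from 0 to 1028, and those higher at 20 h, 28 h and 36 h from 0 to 1054, with a library left out. The cause was not tested.

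Over all 1763 calls, direction changed for 7 without the time term, 4 without 30 h, 3 with each limma fit, 2 with DESeq2 and 1 with the replicate block. Among the named genes, directions reversed for uncalled ones. For lin-29 (0.76 log2) it was -0.42 with the replicate block. For nhr-23 (0.17 log2) the value was -0.06 under library totals, -0.12 with limma on the deposited values, and -0.66 to 0.65 with a library left out. For nhr-25 (0.01 log2) it was -0.19 under library totals, -0.01 with a mean of at least 50 counts, -0.00 with DESeq2 and with edgeR's newer dispersions, -0.43 with limma on CPM, -0.62 with limma on the deposited values, -0.03 with all 10 libraries, and -1.20 to 0.77 with a library left out. With a library left out, bli-3 ran from -0.27 to 0.22 and cut-2 from -1.66 to 0.23. Depth followed phase: genes absent at 22 h or 30 h were counted in shallower libraries.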

Other observations

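Several gene classes are described here, of which wrt genes also stand among the hedgehog-related genes and mltn-1, but not mltn-9, among the moulting genes. The classes were picked out after their values were seen, so their counts are descriptions beside the backgrounds of 5.69% and 7.22%. Of 14 fipr genes (fungus-induced protein related), 13 were higher at 22 h and 30 h, and all 8 nspb genes (nematode-specific peptides) were. The gene fipr-6 had 0.134, 48.1, 0.208, 33.5 and 0.0406 CPM in order of time (-8.23 ± 0.34 log2, adjusted p = 0.00129), and fipr-3 had 0.436, 124, 0.565, 78.6 and 0.284 CPM (-7.84 ± 0.26 log2, adjusted p = 0.000923). The gene nspb-6 had 0.101, 41.4, 0.119, 39.2 and 0.162 CPM (-8.27 ± 0.20 log2, adjusted p = 0.000784). All 3 stayed below 1 CPM at 18 h, 26 h and 34 h. The counts depend on the repeats: fipr calls fell to 7, 8 and 7 without 22 h, 30 h or 34 h, and nspb calls to 2, 2 and 5. In nspb-7, 111 and 85 counts at 22 h and 30 h met 0 in each of the other 3 libraries, at least 32.2-fold higher against 3 counts per library, and nspb-10, also at 0 in those libraries, was at least 30.2-fold higher. The calls of nspb-7 and nspb-10 ended without 22 h (adjusted p = 0.0652 and 0.0681) or 30 h (0.0634 and 0.0641), and DESeq2 did not call nspb-7 (0.103). These small peptides belong to families of similar sequence, so reads may be shared between members.

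Of 86 tested F-box fbxa genes, 23 were higher at 22 h and 30 h, with 10, 2, 15, 6 and 8 called when 18 h, 22 h, 26 h, 30 h and 34 h were left out in turn. Of 47 transthyretin-like ttr genes 13 were higher there and 2 at 18 h, 26 h and 34 h (2 called higher there without 22 h, and 2 without 30 h). In the other direction stood 6 of 10 wrt genes, 6 of 9 cadherin genes and 5 of 7 mltn genes, with 3, 3 and 2 calls without 22 h, 4, 3 and 2 without 30 h, and 2, 3 and 4 without 34 h. The cadherin gene cdh-12 had 1227, 21.9, 1823, 22.3 and 1671 CPM (6.15 ± 0.21 log2, adjusted p = 0.000979). The osmotic stress gene osr-1 had 115.7, 2.72, 202, 1.70 and 248 CPM (6.30 ± 0.46 log2, adjusted p = 0.00595), and the methyltransferase gene comt-1 had 23.9, 0.318, 15.2, 0.106 and 12.8 CPM (6.25 ± 0.32 log2, adjusted p = 0.00173). The tyrosinase gene tyr-2 had 7.97, 1328, 10.5, 895 and 4.47 CPM (-7.18 ± 0.38 log2, adjusted p = 0.00317), a call that ended without 22 h (adjusted p = 0.0587) or 30 h (0.0536), and piit-1 had 1.24, 138, 0.654, 89.3 and 0.650 CPM (-7.10 ± 0.19 log2, adjusted p = 0.000827).

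Smaller lists were mixed, and their counts stand beside backgrounds of 5.69% and 7.22% of all tested genes. Of 31 cuticlin genes 4 were higher at 18 h, 26 h and 34 h and 5 at 22 h and 30 h, among them cutl-28 at 13.9, 0.389, 11.9, 0.478 and 16.2 CPM (5.02 ± 0.26 log2, adjusted p = 0.00177), while the most counted, cut-2, had 489, 2734, 2481, 1411 and 870 CPM (-0.68 ± 0.86 log2, adjusted p = 0.645). Cuticlin calls were 7 and 5 without 18 h, 7 and 6 without 26 h, 1 and 1 without 22 h, 1 and 0 without 30 h, and 2 and 2 without 34 h. Of 9 pharyngeal gland genes the calls were hlh-6 (3.05 log2, mean of 0.816 CPM) and phat-5 (-4.40 log2). Of 19 heterochronic genes only lin-42 was called, a count near the background. Of 11 seam cell genes the calls were bro-1 (2.34 log2) and lin-22 (-1.12 log2). In bro-1 and lin-22 the phases overlapped and levels fell with time (trends of -3.01 and -2.21 log2 over 16 h). The calls of hlh-6, bro-1 and lin-22 ended without 22 h (adjusted p = 0.111, 0.173 and 0.144), those of hlh-6, bro-1 and lin-22 without 30 h (0.0837, 0.136 and 0.145), and those of hlh-6 and lin-22 without 34 h (0.069 and 0.0973). Without the time term the calls of phat-5, bro-1 and lin-22 ended (adjusted p = 0.103, 0.27 and 0.575). That of lin-22 also ended without 18 h (adjusted p = 0.0694), with all 10 libraries (0.114) and after thinning (0.0551).

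Called genes also lay beside one another in RefSeq's gene order (assembly WBcel235). Of 941 placed genes higher at 22 h and 30 h, 193 (20.5%) had a neighbour called the same way, as did 99 of 728 (13.6%) higher at 18 h, 26 h and 34 h. Of all 12927 placed genes, 9.81% had a neighbour called higher at 22 h and 30 h and 8.07% one called higher at 18 h, 26 h and 34 h. Among 9715 adjacent pairs, 106 and 53 were called the same way in these directions and 80 in opposite ways. Runs of 5 were col-167 to col-170 with chtb-3, and idpc-4 to idpc-7 with pqn-63, and lpr-3, lpr-6, lpr-5 and lpr-4 formed a run of 4. Neighbouring copies can share reads, and their part in these runs was not tested.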
